A study of Drosophila melanogaster with 15 samples.

Results

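The X chromosome carried 2566 of the 14425 acetylation windows in the mushroom body (MB) of adult *Drosophila*, the brain structure that stores olfactory memory. These windows were built from every listed peak of 2 histone marks on X, H4K16Ac and H3K9Ac, the acetylated forms of a lysine of histone H4 and of histone H3. Each peak was set to 400 bp around its center, and overlapping windows of the same mark were merged. For H4K16Ac, 5367 of 24152 peaks lay on X and gave 1751 of 8075 windows. For H3K9Ac, 2983 of 23378 peaks gave 815 of 6350 windows.

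The series holds 15 samples of MB nuclei labelled as strain CS10, which is w(CS10) in the methods, the control line to which the fly lines had been outcrossed. H3K9Ac and H4K16Ac were each profiled in 3 naive libraries and in 3 libraries made 1 day after spaced training, in which odor and shock are paired repeatedly with rests. The transcription factor CREB and the protein CRTC, which coactivates it, had 1 library each after spaced training, and naive flies also gave 1 library of input DNA. All flies carried a FLAG-tagged KASH domain under the *MBp-LexA* driver, whose expression the study describes as weak in α′/β′ neurons and strong in the remaining MB neurons (α/β and γ), and nuclei were captured from heads by the tag. According to the methods, female and male flies were used in all experiments, and the labels give no sex and no age. The tables list the peaks of a mark in 3 runs of rows that carry no library names, so no value below compares naive with trained flies, library depth was not used, and the number of X copies in the nuclei cannot be told apart from the acetylation of each copy.

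Acetylated lysines loosen chromatin and recruit readers of active genes, and H3K9Ac is best known from the start of transcribed genes. H4K16Ac has an additional role on the fly X. In males, the MSL complex, built on the noncoding RNAs roX1 and roX2, carries the acetyltransferase MOF to the bodies of active X genes, which raises their transcription to match the paired X of females. In females, the protein Sxl prevents the assembly of that complex.

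The marks had unlike densities on X (the plot of windows along X). H4K16Ac had 78.1 windows per Mb of listed span (22.4 Mb), compared with 57.3 to 74.5 on the arms 2L, 2R, 3L and 3R. H3K9Ac had 36.4 windows per Mb, compared with 51.4 to 65.1 on those arms. Thus X was the densest of these arms for one mark and the sparsest for the other. Without merging, the densities on X were 95.2 and 44.4 windows per Mb, and a single run of rows gave 49.8 to 66.9 for H4K16Ac and 26.4 to 34 for H3K9Ac.

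**Figure D1:**
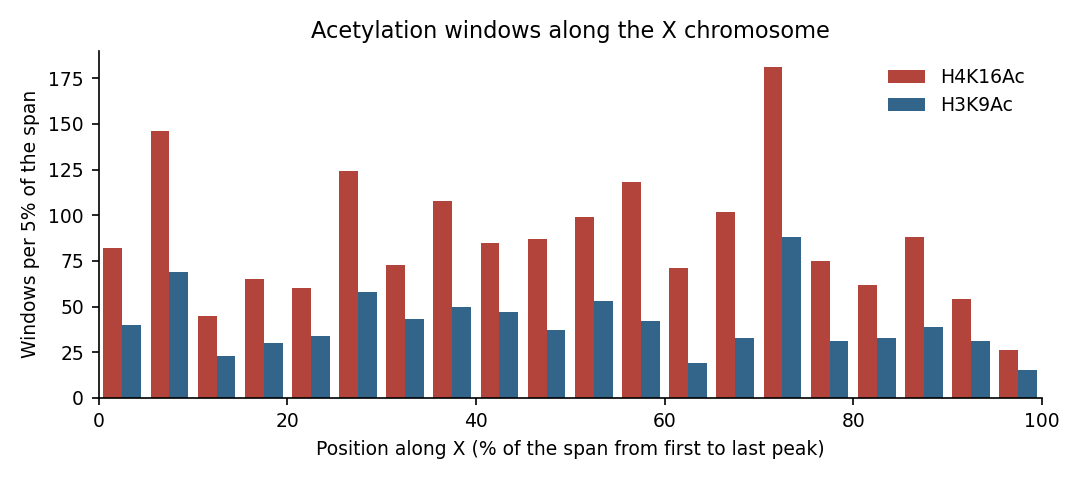
Number of H4K16Ac and H3K9Ac windows in 20 equal intervals along the X chromosome, as a percentage of the span from the first to the last listed peak. H4K16Ac exceeded H3K9Ac in every interval, and the interval from 70% to 75% held the most windows of both marks (181 and 88).

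H4K16Ac windows outnumbered H3K9Ac windows in every complete 1 Mb bin of X. They also did so in 18 of 22 bins on 2L, 17 of 21 on 2R, 19 of 24 on 3L and 26 of 27 on 3R. In the 22 complete 1 Mb bins of X there were 43 to 139 H4K16Ac windows (median 76) and 12 to 62 H3K9Ac windows (median 33.5). The ratio of H4K16Ac to H3K9Ac windows lay between 1.73 and 4.08 (median 2.07). It was above 1.5 in 22 of 22 bins on X, in 1 of 27 bins on 3R, where the highest bin reached 1.57, and in 0 of 22, 0 of 21 and 0 of 24 bins on 2L, 2R and 3L. The highest X ratio, 4.08, came from the bin at 14 to 15 Mb, which held 49 H4K16Ac and 12 H3K9Ac windows, and the lowest, 1.73, from the bins at 9 to 10 Mb and 18 to 19 Mb. The incomplete bin at the end of X, from 22 Mb, held 1 H4K16Ac and 4 H3K9Ac windows. The densest bin lay at 15 to 16 Mb with 139 H4K16Ac and 60 H3K9Ac windows.

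**Figure D2:**
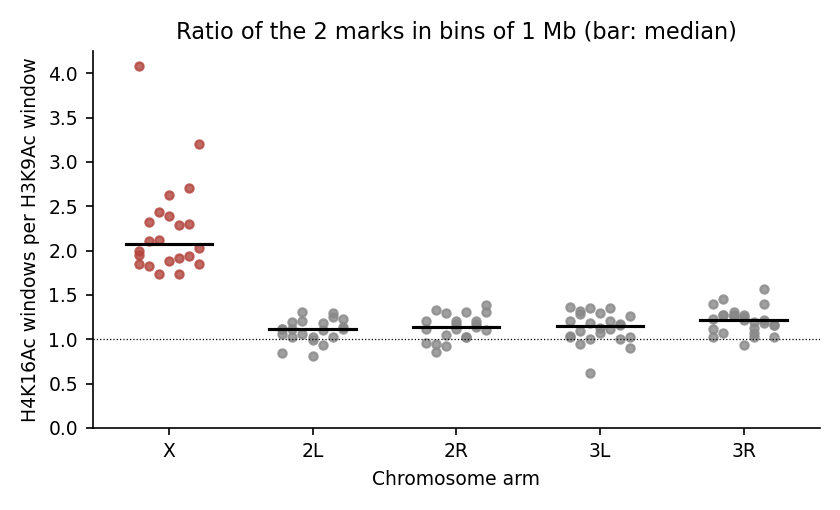
Ratio of H4K16Ac to H3K9Ac windows in complete 1 Mb bins of 5 chromosome arms, each point a bin and each bar the median of an arm. Every X bin was at 1.73 or higher, and the highest bin of the other arms reached 1.57.

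Where H4K16Ac windows were present on X they also stood close together. The median distance between the centers of neighboring windows was 2266 bp on X, compared with 3170 to 3852 bp on the other arms, and 79.3% of X windows had a neighbor within 2000 bp (67.6% to 71.3% on the other arms). Groups of at least 5 windows spaced by no more than that distance held 414 windows, or 23.6% of those on X, compared with 10.5% to 12.8%. For H3K9Ac the order was different, with 53.7% of X windows having such a neighbor (60.7% to 64.1% elsewhere) and 5.89% in groups of at least 5 (4.92% to 9.4% elsewhere). The largest group of either mark covered the same genes, *kat80*, *Pros28.1*, *eas* and their neighbors, with 13 H4K16Ac windows in 15119 bp (chrX:16168196-16183314, dm3), 11 of them overlapping H3K9Ac, and 10 H3K9Ac windows in 9483 bp. A group of 11 H4K16Ac windows at *ade5* and *CG12717* (chrX:12643874-12657814) overlapped H3K9Ac in 1 window. The longest stretch of X without an H4K16Ac window measured 502506 bp (chrX:20396193-20898698), and H3K9Ac had its longest gap, of 502360 bp, at nearly the same place.

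H4K16Ac windows on X lay near promoters less often, and in gene bodies more often, than those of 2L, 2R, 3L and 3R (the plot of shares by arm). The transcription start site (TSS) was counted as near where it lay within 500 bp of a 400 bp window around the strongest peak, that is, within 700 bp of that peak's center. On X, 903 of 1751 H4K16Ac windows (51.6%) were near a TSS, compared with 4111 of 6249 (65.8%) on 2L, 2R, 3L and 3R, where single arms ranged from 65.3% to 66.5%. The odds ratio was 0.554 (95% interval 0.497 to 0.617), and the two-sided Fisher's exact test gave an adjusted p of 4.12e-26. Windows in a gene body away from the TSS made up 33.7% on X (590 windows) and 23.4% on the other arms, with single arms from 20.7% to 25.2% (odds ratio 1.66, 1.48 to 1.87, Fisher's exact test, two-sided, adjusted p = 6.95e-17). The small chromosome 4, which stayed out of these comparisons, had 75 H4K16Ac windows, of which 41.3% were near a TSS (95% interval 30.9% to 52.6%) and 37.3% in a gene body away from it (27.3% to 48.6%), so a low share near the TSS was not particular to X.

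H3K9Ac windows on X differed from the other arms in the opposite direction. Of the 815 windows, 614 (75.3%) were near a TSS, compared with 69.5% on the other arms and 67.8% to 70.5% on single arms (odds ratio 1.34, 1.13 to 1.59, Fisher's exact test, two-sided, adjusted p = 0.000914). The share in a gene body away from the TSS was 17.9% on X and 23.2% on the other arms, with single arms from 21.4% to 26.1% (odds ratio 0.721, 0.597 to 0.872, Fisher's exact adjusted p = 0.000914). Both H3K9Ac calls were lost among windows that had a peak in every run of rows (odds ratio 1.18, Fisher's exact p = 0.25 near a TSS and 0.9, p = 0.522 in gene bodies), an alternative chosen after the data were seen. Against 2R alone, the gene body share gave an odds ratio of 0.802 (Fisher's exact p = 0.0535).

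**Figure D3:**
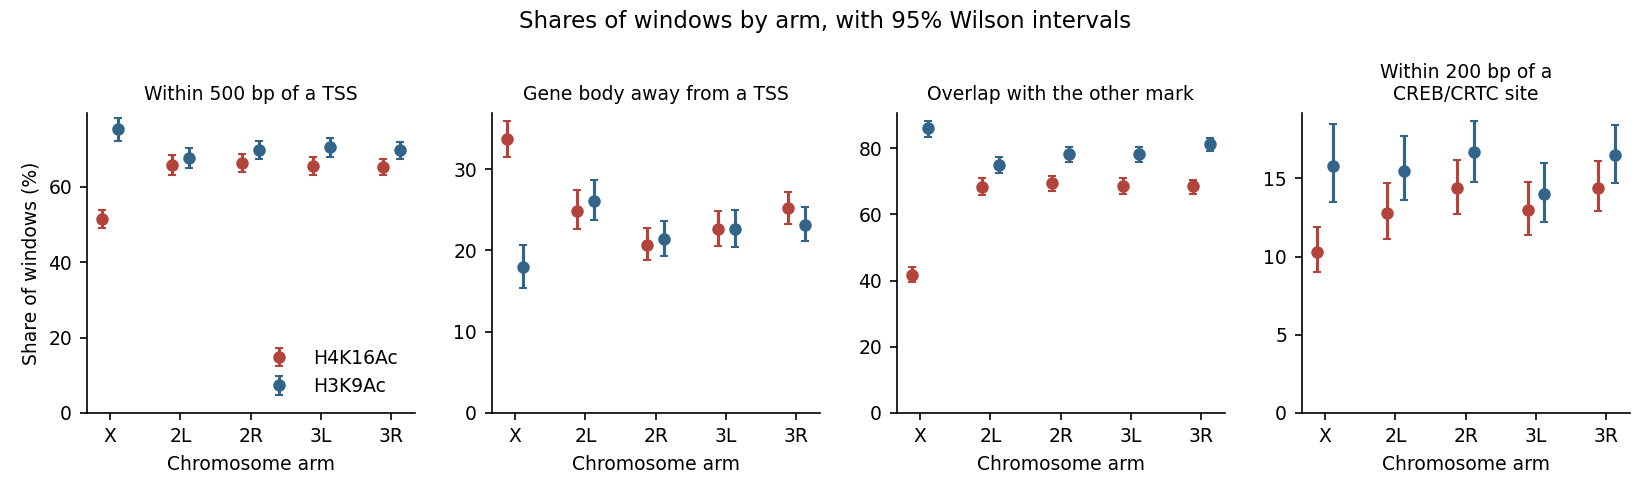
Share of H4K16Ac and H3K9Ac windows near a TSS, in a gene body away from a TSS, overlapping the other mark and within 200 bp of a CREB/CRTC site, on 5 chromosome arms, with 95% Wilson intervals that cover counting error over windows. For H4K16Ac near a TSS, X was at 51.6% and the other arms at 65.3% to 66.5%, and for its overlap with H3K9Ac, X was at 41.7% and the other arms at 68.4% to 69.5%.

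The shift of the H4K16Ac windows on X fell on both sides of the promoter (the plot of distances from the TSS). Of the 1710 X windows with a gene, 38.7% had their strongest peak in the first 500 bp downstream of the TSS, compared with 55.1% on the other arms. Between 500 and 1000 bp downstream the shares were 10.5% and 7.01%, between 1000 and 2000 bp 9.53% and 5.06%, between 2000 and 5000 bp 9.24% and 5.82%, and beyond 5000 bp 10.5% and 10.1%. For H3K9Ac, 4.36% of X windows and 8.48% on the other arms had their strongest peak beyond 5000 bp downstream. The higher shares of H4K16Ac in gene bodies thus lay within 5000 bp of the TSS. Windows upstream of a gene and more than 500 bp from its TSS made up 12.4% on X and 7.87% on the other arms (odds ratio 1.66, 1.4 to 1.96, Fisher's exact test, two-sided, adjusted p = 4.43e-08). In annotated 3′ untranslated regions there were 30 X windows (1.71%), compared with 0.448% on the other arms and 0.261% to 0.636% on single arms (odds ratio 3.87, 2.31 to 6.5, Fisher's exact adjusted p = 1.23e-06). Neither difference was detected for H3K9Ac, for which the odds ratio was 0.924 (0.665 to 1.28) upstream and 0.83 (0.249 to 2.76) in 3′ untranslated regions.

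**Figure D4:**
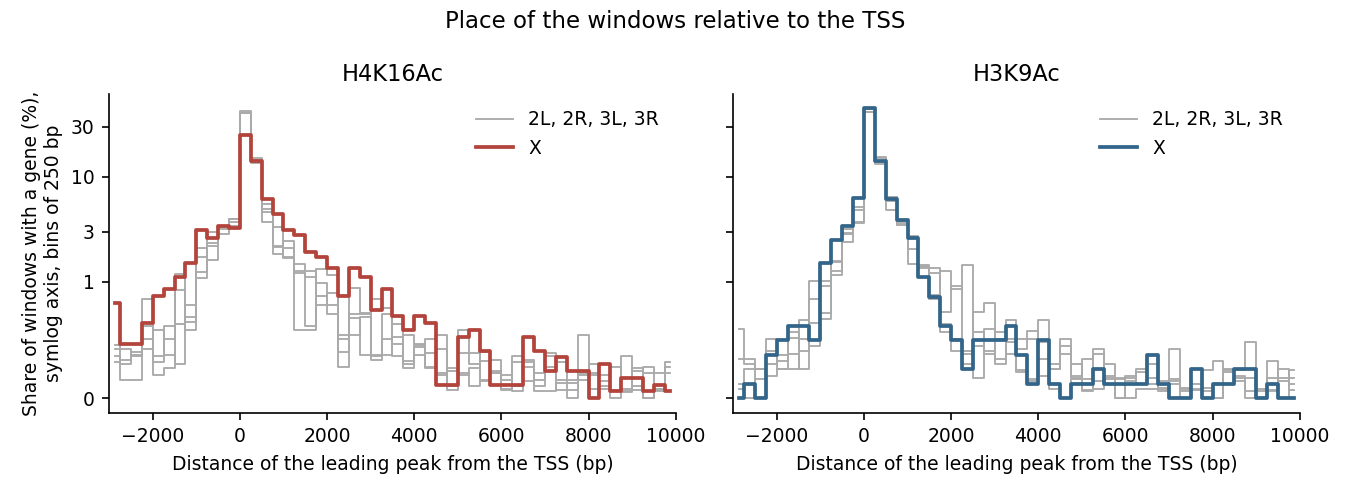
Share of windows by the signed distance of the strongest peak from the TSS, in bins of 250 bp on an axis that is linear up to 1% and logarithmic above, for X (colored) and for 2L, 2R, 3L and 3R (grey). For H4K16Ac, the X line lies below the grey lines just downstream of the TSS and above most of them from there to about 4000 bp, whereas for H3K9Ac the X line lies above the grey lines from -1000 to 250 bp.

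The overlap between the marks also differed, although these shares are limited by the numbers of windows: X had 46.5 H3K9Ac windows for every 100 H4K16Ac windows, and the other arms 86.7. On X, 731 of 1751 H4K16Ac windows (41.7%) overlapped an H3K9Ac window, compared with 68.8% on the other arms (odds ratio 0.325, 0.292 to 0.363, Fisher's exact test, two-sided, adjusted p = 4.75e-91). In the reverse direction, 701 of 815 X H3K9Ac windows (86%) overlapped an H4K16Ac window, compared with 78.4% on the other arms and 75% to 81.2% on single arms (odds ratio 1.7, 1.38 to 2.09, Fisher's exact adjusted p = 5.84e-07). With as many windows of either mark as the less numerous mark had on each arm (815 on X), those with the highest scores, 54.1% of X H4K16Ac windows overlapped H3K9Ac, compared with 71.5% (odds ratio 0.471, 0.405 to 0.547, Fisher's exact p = 3.36e-22). The reverse share then turned direction, with 56.1% of X H3K9Ac windows overlapping H4K16Ac, compared with 71.7% (odds ratio 0.504, 0.434 to 0.586, Fisher's exact p = 1.82e-18). This alternative was chosen after the data were seen. It kept every H3K9Ac window, but 815 of 1751 H4K16Ac windows on X and 5416 of 6249 on the other arms. The reverse share on X was thus lowered by the selection itself, so its turn is no result about the marks. Of all H4K16Ac windows near a TSS, 60.4% overlapped H3K9Ac on X and 79% elsewhere. In gene bodies away from the TSS the shares were 22.2% and 53.2%. The numbers of windows limit these shares too. In gene bodies X had 146 H3K9Ac windows beside 590 of H4K16Ac, and the other arms 1258 beside 1463. Near a TSS the numbers were 614 beside 903 on X and 3765 beside 4111 elsewhere. The share was lower on X in both places, and whether overlap differed beyond these numbers was not tested.

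The difference in place was present among the 1020 X windows with H4K16Ac and no overlapping H3K9Ac. Of these, 358 (35.1%) were near a TSS, compared with 44.2% of such windows on the other arms (odds ratio 0.683, 0.584 to 0.799, Fisher's exact adjusted p = 2.99e-06), and 459 (45%) lay in gene bodies, compared with 35.1%. Among H4K16Ac windows that did overlap H3K9Ac, 74.6% were near a TSS on X and 75.6% on the other arms (odds ratio 0.946, 0.79 to 1.13, Fisher's exact test, two-sided, adjusted p = 0.642). Whether these odds ratios differ was not tested. The median distance from an H4K16Ac window without H3K9Ac to the nearest H3K9Ac window on X was 2604 bp (quartiles 771 and 6457 bp), and 303 of them (29.7%) had one within 1000 bp.

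Peak scores and the support of windows by the runs of rows also differed, and these values stand beside the shares. The score of the strongest peak, a statistic of the PICS peak caller with no fixed range, had a median of 2.54 in X H4K16Ac windows (2.19 to 2.23 on the other arms) and 2.84 in X H3K9Ac windows (2.5 to 2.62). The enrichment factors of X CREB sites (median 7.44, compared with 5.77 to 6.19) and X CRTC sites (5.38, compared with 4.42 to 4.6) were higher as well. The part of these higher values in the differences of place was not tested. X windows nevertheless had peaks in all 3 runs less often, at 35.7% compared with 43.1% for H4K16Ac (odds ratio 0.734, 0.658 to 0.819, Fisher's exact test, two-sided, adjusted p = 8.25e-08) and 50.6% compared with 55.7% for H3K9Ac (odds ratio 0.813, 0.701 to 0.942, Fisher's exact adjusted p = 0.0087). Within H4K16Ac windows of all 3 runs, 69.1% were near a TSS on X and 75.8% on the other arms. In windows of 1 run the shares were 33% and 50.8%, so windows with less support lay near a TSS less often on X and on the other arms.

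CREB/CRTC sites, defined as CRTC sites within 200 bp of a CREB site, numbered 392 on X. Their density was 17.5 per Mb, compared with 18.1 to 23.4 on the other arms, and 48.2% of them lay within 200 bp of an H4K16Ac window (40.6% to 49% elsewhere), whereas 35.5% lay at an H3K9Ac window (40% to 51.2% elsewhere). Shares of windows with a site are limited by the numbers of both. X had the fewest sites per Mb of these arms and the most H4K16Ac windows per Mb (78.1, compared with 57.3 to 74.5). Association beyond these numbers was not tested. Of the X H4K16Ac windows, 181 (10.3%) had such a site within 200 bp, compared with 13.7% on the other arms (odds ratio 0.724, 0.611 to 0.858, Fisher's exact test, two-sided, adjusted p = 0.000257). This difference was not detected among windows with peaks in at least 2 runs (odds ratio 0.871, Fisher's exact p = 0.19) or in every run (0.993, Fisher's exact p = 1). Of the X H3K9Ac windows, 15.8% had such a site, and 15.7% on the other arms (odds ratio 1.01, 0.823 to 1.23). The lists of CRTC and CREB/CRTC sites used here are shorter than the study's text describes, so these shares hold for the listed sites. The labels name 1 library for each factor, while the methods describe sites called in several biological replicates. The study places its CREB/CRTC data in a separate series, which was not used, and no replicate check was made here.

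At the level of genes, X had 1077 genes named at an H4K16Ac window, 685 at an H3K9Ac window and 651 at both. H4K16Ac without H3K9Ac marked 426 genes, 39.6% of the X genes with H4K16Ac, compared with 20.5% on the other arms (odds ratio 2.53, 2.2 to 2.92, Fisher's exact test, two-sided, adjusted p = 1.2e-35). The unequal numbers of genes alone require at least 36.4% on X and 8.98% on the other arms. H3K9Ac without H4K16Ac marked 34 X genes (4.96% of those with H3K9Ac, compared with 12.7%). Genes with at least 3 H4K16Ac windows made up 16.8% of X genes with the mark and 7.14% on the other arms (odds ratio 2.63, 2.16 to 3.19, Fisher's exact adjusted p = 6.74e-20). For H3K9Ac the shares were 5.11% and 6.56% (odds ratio 0.767, 0.535 to 1.1, Fisher's exact adjusted p = 0.192). In 17.8% of the X genes with H4K16Ac no window of the mark lay near a TSS, compared with 12.1% (odds ratio 1.57, 1.31 to 1.88, Fisher's exact adjusted p = 2.99e-06). On chromosome 4, outside these comparisons, this held for 16 of 47 genes (34%), so it was not particular to X.

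As a background for single genes, 47.8% of the 2197 protein-coding genes that RefSeq places on X had an H4K16Ac window and 30.5% had an H3K9Ac window. On 2L, 2R, 3L and 3R the same shares of 11645 genes were 39.9% and 36.2%. Each peak carries the name of 1 gene in the tables, so a gene without a window may lie beside peaks named for its neighbor.

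Single genes of X had up to 10 H4K16Ac windows. *Mnt*, a partner of Max and antagonist of Myc, had 10 windows, of which 9 lay in the gene body, and 4 H3K9Ac windows. Its H4K16Ac windows at 1118 and 6762 bp from the TSS had peaks in all 3 runs, and each of the others had a peak in 1 run. *Smr*, the corepressor SMRTER, had 9 H4K16Ac windows that reached 31612 bp from its TSS, and 7 of these lay in the gene body. Its 4 H3K9Ac windows extended to 8197 bp from the TSS. At the H3K9Ac window over the TSS of *Smr* (chrX:12635672-12637473) the scores were 7.04, 6.83 and 5.12 in the 3 runs, whereas 6 of the 9 H4K16Ac windows had a peak in 1 run each.

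The forkhead factor gene *CHES-1-like* had 8 H4K16Ac and 5 H3K9Ac windows, none of them near its TSS. *sd*, the gene of the TEAD family factor Scalloped, had 7 H4K16Ac windows and 1 H3K9Ac window. That H3K9Ac window (chrX:15706326-15707433) lay in an intron and overlapped the H4K16Ac window with the highest score of the gene, which scored 4.51, 3.14 and 4.25 in the 3 runs. *CG42354* and *svr*, which encodes a carboxypeptidase D, also had 7 H4K16Ac windows each. *Tis11*, the gene of a zinc finger protein of mRNA decay, *CG4068* (*CG44774* in RefSeq), the kinase gene *tlk* and *l(1)G0232* (*Ptpmeg2* in RefSeq) had 6 each, most of them in the gene body (4, 6, 5 and 5 windows in that order). No H4K16Ac window of *CG42354* had peaks in all 3 runs. At *tlk*, the windows 128 and 60588 bp from the TSS did, and each of the others had a peak in 1 run.

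H3K9Ac windows were most numerous at *eas*, an ethanolamine kinase gene, with 7 windows (6 in the gene body) beside 5 H4K16Ac windows. *Ant2*, a mitochondrial adenine nucleotide translocase gene, had 6 H3K9Ac and 5 H4K16Ac windows. *CG15321*, whose transcript RefSeq assigns to *nej*, the gene of the acetyltransferase CBP and a coactivator of CREB, had 5 H3K9Ac and 3 H4K16Ac windows. Its window with the highest score (chrX:9579123-9579750) lay 126 bp from a CREB/CRTC site and scored 9.04, 8.59 and 6.33 in the 3 H3K9Ac runs.

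The strongest X windows of the marks were partly at the same genes. The H4K16Ac window with the highest score, also the highest in the genome, lay in an intron of *CG1640* (chrX:13264774-13266119), but its scores of 4.37, 3.45 and 15.3 in the 3 runs show that 1 run set this rank. *Marf*, which encodes the mitochondrial fusion protein mitofusin, scored 9.52, 13 and 8.71 at a window in its 5′ untranslated region (chrX:6259905-6261218). The same place had H3K9Ac scores of 10.7 and 11.9 in 2 runs and no peak in the third. *su(s)*, an RNA-binding protein gene, scored 10.7, 10.1 and 11.6 for H4K16Ac in an intron (chrX:529855-531876), so its runs lay close together. *Top1*, the DNA topoisomerase I gene, had scores of 5.29, 9.4 and 4.25 at an intronic H4K16Ac window 4186 bp from its TSS, where H3K9Ac scored 6.69, 5.27 and 5.66. The *CG42354* window that ranked next (9.21) had a peak in 1 run of 3.

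For H3K9Ac the highest X score belonged to *Gapdh2*, a glycolytic enzyme gene, at a window that began upstream of the TSS and overlapped a CREB/CRTC site (chrX:15760915-15762154). It scored 14.9, 11.8 and 10.5 in the 3 runs, and no H4K16Ac window overlapped it. *Gapdh2* did have an H4K16Ac window 267 bp from its TSS (chrX:15762193-15762881), with 1.2, 2.45 and 2.74, which overlapped another H3K9Ac window of the gene. *Sec16*, which organizes exit sites of the endoplasmic reticulum, had the next highest H3K9Ac score, with 7.9, 12.4 and 4.03 in the 3 runs. *Mgstl*, a microsomal glutathione transferase gene, scored 10.8, 4.91 and 8.69, and the ribosomal protein gene *RpL37a* scored 10.6, 6.45 and 8.69. Relative to the whole genome, X held 34.4% of the top 10% of H4K16Ac scores (278 of 808) and 21.7% of all H4K16Ac windows. It held 15.6% of the top 10% of H3K9Ac scores (99 of 635) and 12.8% of all H3K9Ac windows, and the best X window of H3K9Ac ranked 17.

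All 4 listed genes of dosage compensation on X carried H4K16Ac and 3 carried H3K9Ac, beside 47.8% and 30.5% of all protein-coding X genes. The noncoding *roX1* and *roX2* lie outside those shares. *roX1* had a window in its transcribed region (chrX:3755470-3756809), with scores of 4.13, 2.45 and 0.956 in the 3 runs, that overlapped an H3K9Ac window with 3.86, 3.6 and 3.52. A second H4K16Ac window lay upstream of *roX1*, at -2494 bp from its TSS, and had a peak in 1 run (5.5). *roX2* had an H4K16Ac window 251 bp from its TSS (chrX:11473140-11473635) with 1.48, 2.3 and 1.91, and no H3K9Ac window. *mof*, the gene of the H4K16 acetyltransferase, had 1 window of each mark over its TSS, in 2 of 3 runs for both marks (3.94 and 3.95 for H4K16Ac, 4.88 and 4.96 for H3K9Ac). At *Sxl*, 4 H4K16Ac windows had a peak in 1 run each, with scores from 1.43 to 2.54, whereas 2 H3K9Ac windows had peaks in all 3 runs, up to 4.83.

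Of 33 neuronal and memory genes on X, 18 (54.5%) had H4K16Ac and 16 (48.5%) had H3K9Ac, beside the 47.8% and 30.5% of all protein-coding X genes above. Of their 53 H4K16Ac windows, 39 lay in gene bodies and 13 near a TSS, beside 33.7% and 51.6% of all X H4K16Ac windows. *Smr* alone gave 7 of the 39, and gene length was not taken into account. Of all X genes with H4K16Ac, 39.6% had no H3K9Ac window, and of the 18 list genes with H4K16Ac a smaller share had none (5 genes). *rut*, the adenylyl cyclase of olfactory learning, was one of them, with 3 windows between 30521 and 32117 bp from its TSS (chrX:14687622-14689617). The strongest scored 4.03 and had a peak in 1 run, and another had peaks in 2 runs (2.69 and 3.61). *dnc*, the cAMP phosphodiesterase gene, had 2 intronic windows with a peak in 1 run each (2.01 and 1.9), of which the second overlapped a CREB/CRTC site. *HDAC4*, a histone deacetylase gene, had 3 windows, and the one at 6975 bp from its TSS had peaks in all runs (4.13, 3.31 and 3.5). *N*, the Notch receptor gene, had 1 window 27015 bp into the gene with 3.65 and 6.37 in 2 runs. *Hk*, a potassium channel subunit gene, had 1 window of 1 run (2.07).

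Genes of both marks included *CrebB-17A*, the gene of CREB itself. Of its 4 H4K16Ac windows, the one at 4158 bp from the TSS overlapped a CREB/CRTC site (chrX:18264919-18266062) and scored 5.71, 3.45 and 2.71, and the single H3K9Ac window of the gene lay at the same place with 4.01, 6.57 and 4.86. *Bx*, an LIM-only protein gene, carried an H3K9Ac window at its 5′ end (2.22 and 2.17 in 2 runs) and 2 H4K16Ac windows of 1 run, at 18938 and 19432 bp downstream of its TSS. The adhesion molecule gene *Fas2* had H4K16Ac 322 bp from its TSS (2.73 and 3.82 in 2 runs) and H3K9Ac at an overlapping window with 4.25, 3.65 and 5.66. *elav*, which encodes a neuronal RNA-binding protein, had 4 H4K16Ac windows, among them one near the TSS with 2.64, 1.99 and 3.1. The dynamin gene *shi* had 3 windows of each mark. H3K9Ac without H4K16Ac was listed at the clock gene *per*, at *br* and at *stnB*. The 12 genes with no window of either mark under their name were *amn*, *Appl*, *Sh*, *para*, *cac*, *eag*, *HDAC6*, *futsch*, *nAcRalpha-18C*, *kirre*, *rst* and *stnA*. Among these, *Sh*, *para*, *cac* and *eag* encode ion channels of neurons. List genes were sought by these names alone, whereas the shares of all protein-coding genes used names matched to RefSeq. The study counts *HDAC6* among its candidates with increased CREB/CRTC binding and acetylation, so a missing name does not show that a gene lacks the marks.

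Ribosomal protein genes carried both marks around the TSS. Of 14 such genes on X, 12 (85.7%) had H4K16Ac and 13 (92.9%) had H3K9Ac, beside 47.8% and 30.5% of all protein-coding X genes. None of their 16 H4K16Ac windows lay in a gene body away from the TSS, 14 were near a TSS and 2 upstream, and 14 overlapped H3K9Ac. *RpS14b* had H3K9Ac alone, and *RpS6* had neither mark. All 11 housekeeping and chromatin genes, such as *Act5C*, *arm* and *RpII215*, had an H4K16Ac window near a TSS, and 9 (81.8%) had H3K9Ac. The same shares of all protein-coding X genes, for windows at any place, stand beside these counts. Of the 11 genes, *Set2*, the gene of the H3K36 methyltransferase, and *wds* had no H3K9Ac window. *Set2* had its second H4K16Ac window in the 3′ untranslated region, 7573 bp from the TSS, and each of its 2 windows had a peak in 1 run (2.59 and 3.07). The plot of windows per gene shows these groups side by side. The lists were not compared with each other by a test.

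**Figure D5:**
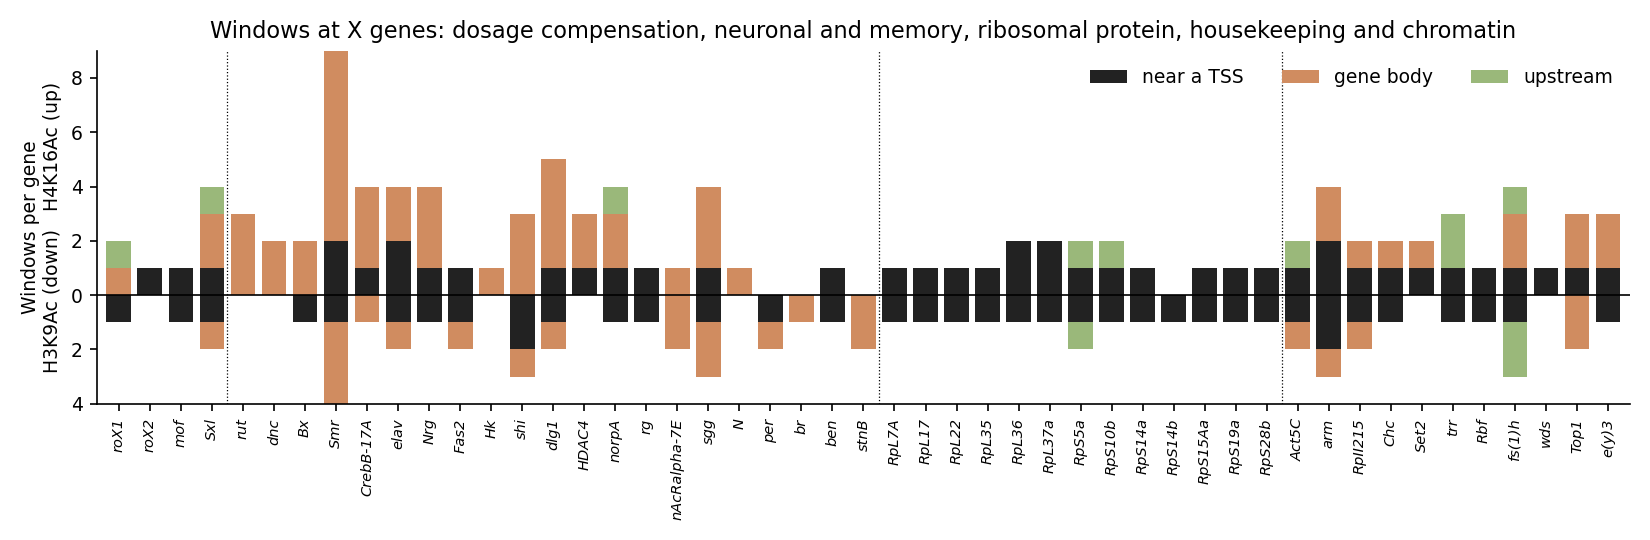
Number of H4K16Ac windows (upward) and H3K9Ac windows (downward) at X genes with at least 1 window, split by place, for 4 lists separated by dotted lines. *Smr* has the most windows with 9 and 4. Of the 18 neuronal and memory genes with H4K16Ac, 11 have it near a TSS and 7, such as *rut* and *dnc*, do not. Ribosomal protein genes have no H4K16Ac window in the gene body. Gene length, which limits the room for gene body windows, was not taken into account.

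Markers gave the following picture of the nuclei. None of the genes of fat body and yolk (*Yp1*, *Yp2*, *Yp3*), follicle cells (4 genes) or salivary gland (4 genes) on X had a window of either mark. Of 13 genes listed for MB neurons over all arms, 9 (69.2%) had H4K16Ac and 9 (69.2%) had H3K9Ac. Among all protein-coding genes, the shares were 47.8% and 30.5% on X and 39.9% and 36.2% on 2L, 2R, 3L and 3R. *ey*, *toy*, *mub*, *Fas2*, *trio*, *elav* and *Syt1* had both marks. *dac* and *brp* had H3K9Ac alone, *rut* and *dnc* had H4K16Ac alone, and *prt* and *nSyb* had neither. Of 6 glial genes, *moody* had an H4K16Ac window upstream, *Gs2* had both marks, *Eaat1* had H3K9Ac, and *repo*, *gcm* and *alrm* had none. Of 3 photoreceptor genes, *norpA* had 4 H4K16Ac windows and 1 H3K9Ac window, *w* had 1 H4K16Ac window, and *rdgA* had none by that name, although *CG15352*, which RefSeq assigns to *rdgA*, had 1 H4K16Ac window upstream.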

How the data were processed

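ChIP-seq of MB nuclei was analysed from the deposited peak lists (genome build dm3). By the study's methods, the authors mapped SOLiD reads of the histone marks with LifeScope and MiSeq reads of CREB and CRTC with CLC Genomics Workbench, dropped reads that mapped poorly, and used PICS and ERD to call peaks over input DNA. The deposited tables give the PICS score, its false discovery rate (in place of a p-value, at most 0.0323 for H4K16Ac and 0.0213 for H3K9Ac), 1 gene and its distance to the TSS. The CREB and CRTC lists that the authors deposited also give an enrichment factor, a ratio of ChIP to background. H4K16Ac rows were 400 or 401 bp wide and H3K9Ac rows 4 to 200 bp, so all peaks were reset to 400 bp around the center. Of the 6 lists, 2 hold the authors' own comparison of trained with naive flies and were not used.

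Windows of a mark that overlapped by at least 1 bp were merged, and the peak with the highest score gave the gene and the TSS distance. Shares on X were compared with 2L, 2R, 3L and 3R by Fisher's exact test (scipy 1.17.1, two-sided) with Woolf 95% intervals. Benjamini-Hochberg adjustment covered 20 tests, of which 12 were added after the data were seen. Neighboring windows are not independent, so p-values describe the windows of these lists and not differences between flies, and the intervals cover counting error alone. The p-values of alternatives are unadjusted. Functions were tested on simulated intervals.

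Gene names were matched to RefSeq (release 6 assembly) by transcript or symbol, with 1073 of 1077 X genes of H4K16Ac and 684 of 685 of H3K9Ac matched, and its coordinates were not used. Named genes were the 10 X genes with the most H4K16Ac windows, the 5 with the most H3K9Ac windows, the genes of the 5 windows with the highest score of each mark, and the members of 4 lists, of which 3 entries were not placed on X. The windows and lists were chosen with earlier results of these data known. Alternatives were unmerged windows, 1000 bp windows, runs of rows alone or combined, scores above the median, single reference arms, and other distances. Added after the data were seen were equal numbers of windows by score and windows with a peak in every run. Library depth and genome sequence were not used here.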

Additional observations from a re-analysis of the deposited data

Results flagged for a closer look

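The difference between X and the other arms was unlike for the marks in 3 measures, tested as the ratio of the odds ratios of H4K16Ac over H3K9Ac (normal approximation on the log scale, over windows that overlap between the marks and are not independent, with 95% intervals). For windows within 500 bp of a TSS the ratio was 0.413 (0.338 to 0.505), from odds ratios of 0.554 and 1.34. For windows in a gene body away from a TSS it was 2.3 (1.85 to 2.88), from 1.66 and 0.721. For windows within 200 bp of a CREB/CRTC site it was 0.719 (0.552 to 0.936), from 0.724 and 1.01. The CREB/CRTC shares are limited by the numbers of sites and windows, which were not taken into account.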

How the results depend on the processing

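Across 10 results and 140 alternatives, 117 left the call or value as it was, 8 lost significance, 8 turned direction and 7 densities moved. The H4K16Ac shares near a TSS (odds ratios 0.537 to 0.748) and in gene bodies (1.31 to 1.94), and the overlap of X H4K16Ac windows with H3K9Ac (0.292 to 0.471), kept their calls under every alternative run. These include 2 that were chosen after the data were seen, namely as many windows by score of either mark over the genome (1452 and 815 on X) and on each arm (815 on X). The overlap of X H3K9Ac windows with H4K16Ac turned from an odds ratio of 1.7 to 0.504 with equal numbers on each arm and kept its call otherwise. That setting kept 815 of 1751 H4K16Ac windows on X and 5416 of 6249 on the other arms, which by itself lowers this share on X. The CREB/CRTC share of X H4K16Ac windows gave odds ratios of 0.871 with peaks of at least 2 runs (Fisher's exact p = 0.19), 0.83 in run 1 (p = 0.0961), 0.819 in run 3 (p = 0.0624), 0.81 in scores above the median (p = 0.0751) and 0.993 with peaks of every run (p = 1). The CREB/CRTC share of X H3K9Ac windows, not called at 1.01, fell below 1 with 1000 bp windows (0.94), peaks of at least 2 runs (0.966), run 1 (0.913), 2R alone (0.941), 3R alone (0.953), windows near a TSS (0.925) and all CREB sites (0.847). For H3K9Ac, the gene body share gave 0.802 against 2R alone and 0.9 with peaks of every run, and the share near a TSS gave 1.18 with peaks of every run. Windows per Mb on X for H4K16Ac were 95.2 without merging and 49.8, 66.9 and 51.5 in the single runs, and for H3K9Ac 44.4 without merging and 27 and 26.4 in runs 1 and 2. Apart from that effect of equal numbers on each arm, the cause of these changes was not tested. No paired analysis was possible because the tables carry no values per library and their runs of rows no sample names. For the same reason no library could be left out by name. The 2 planned tests of GA repeats were not run, since they need the dm3 sequence.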
